A study of Mus musculus with 2 samples.

Results

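The genes described here are the late-numbered mouse miRNA genes that gave reads in left cerebral cortex: genes named Mir with a number of 3000 or more and at least 10 sense counts summed over 2 small RNA libraries. They were chosen by their counts, so the counts and levels below describe them and carry no test. Of 2202 annotated miRNA genes, 162 met the rule, out of 554 late-numbered genes outside a stretch of chromosome 12, a large miRNA cluster that the rule leaves out. A further 392 late-numbered genes stayed below 10 counts, 240 of them with no count and 152 with 1 to 9. Of 560 earlier-numbered Mir genes outside that stretch, 280 reached 10 counts.

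Both libraries came from left cerebral cortex of B6CASTF1/J mice, first-generation hybrids of C57BL/6J and CAST/EiJ, aged 18 to 20 months, with no treatment or transgene in the labels. Total RNA was selected for molecules below 30 nt, and the labels give biological replicates 1 and 2 of 1 group, so no contrast between conditions exists. Female is given as the sex in 2 label fields and male in another. Both libraries carry the same donor identifier, so the spread between them may be technical. Sense counts of miRNA genes totalled 5166667 in replicate 1 and 4459993 in replicate 2, and a level is given as CPM, the count divided by that total and scaled to 1000000. Taking 3 counts as the limit of a count of 0, the floor was 0.581 CPM for replicate 1 and 0.673 CPM for replicate 2, counting error only. Of 11 neuronal marker miRNA genes, 8 were at 2 CPM or more in both libraries, with a summed level of 36826 and 32458 CPM. Of 5 striated muscle genes, Mir206 gave 18.2 and 65.5 CPM and the other 4, copies of Mir1a and Mir133a, had 0 counts, which does not show that their mature miRNAs were absent, since each is made from more than 1 gene copy.

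A miRNA is a short RNA cut from a hairpin precursor and loaded into an Argonaute protein, where bases 2 to 8, the seed, pair with target mRNAs. Most hairpins are freed from their transcript by the nuclease Drosha and then cut by Dicer. Mirtrons are the exception: the hairpin is itself a short intron, and splicing takes the place of Drosha, while a tailed mirtron shares only 1 end with its intron. Registry numbers follow the order of entry, so late-numbered miRNAs are mostly those found by deep sequencing after the abundant and widely conserved families had been named.

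Most of the detected late-numbered hairpins lay inside introns, many of them at the intron's very end. Of the 162, 142 (87.7%) were within a protein-coding gene on the same strand, in an intron or, for 15 of them, an exon. That compares with 248 of 392 late-numbered genes below the minimum and 141 of 280 detected earlier-numbered genes. In 100 of 162 (61.7%) the annotated hairpin ended within 10 nt of the last base of an intron on the same strand, and in 90 it ended on that base exactly. Below are hairpins from GENCODE M21 of the 5 most abundant genes that fill an intron, followed by 2 abundant genes that abut only its 3′ end. Capitals mark the GT that opens the intron and the AG that closes it, so the first 5 carry both and the last 2 carry the AG alone.
Mir3102: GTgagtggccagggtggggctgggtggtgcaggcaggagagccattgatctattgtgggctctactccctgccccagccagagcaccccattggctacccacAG
Mir7080: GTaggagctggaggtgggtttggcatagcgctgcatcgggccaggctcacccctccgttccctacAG
Mir6944: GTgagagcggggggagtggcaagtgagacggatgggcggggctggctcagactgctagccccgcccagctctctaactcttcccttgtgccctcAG
Mir3547: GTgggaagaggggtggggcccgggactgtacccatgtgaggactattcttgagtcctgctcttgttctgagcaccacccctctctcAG
Mir6958: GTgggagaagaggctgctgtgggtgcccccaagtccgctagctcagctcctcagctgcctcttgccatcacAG
Mir7044: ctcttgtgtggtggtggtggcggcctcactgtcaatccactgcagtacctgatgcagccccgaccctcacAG
Mir6769b: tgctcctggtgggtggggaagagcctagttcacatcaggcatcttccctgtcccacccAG

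RefSeq (GRCm38.p6) held mature sequences for 150 of the 162 genes, in 272 arms with 260 distinct seeds. The arms printed next belong to the most abundant genes and to those that share a seed, with the seed in capitals. The deposited counts are per gene, so which arm gave the reads was not analysed here.
mmu-miR-3102-5p: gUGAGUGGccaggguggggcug
mmu-miR-3102-3p: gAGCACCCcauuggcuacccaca
mmu-miR-3099-3p: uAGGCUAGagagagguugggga
mmu-miR-3475-3p: uCUGGAGGcacaugguuugaa
mmu-miR-7080-3p: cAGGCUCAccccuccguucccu
mmu-miR-7044-3p: aUGCAGCCccgacccucacag
mmu-miR-7689-5p: cCGAGGCAgccuggcuuag
mmu-miR-5620-5p: aCGAGGCAggggcuuugacugug
mmu-miR-7047-5p: uGAGGGAGgagggcugggucuga
mmu-miR-6965-5p: aGAGGGAGgcuauugggcaggaga
mmu-miR-3103-5p: gGAGGGAGgaucugcuguuag
mmu-miR-3064-5p: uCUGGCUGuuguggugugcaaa
mmu-miR-3085-3p: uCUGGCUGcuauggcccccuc

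Seeds were rarely shared. Of the 260, 11 seeds occurred in 2 or more of the genes and covered 21 genes. The seed GAGGGAG was the only 1 of the 11 held by 3 genes, Mir7047, Mir6965 and Mir3103, whose levels were far apart: Mir7047 gave 72.0 and 56.3 CPM, while Mir6965 gave 0.774 and 1.57 CPM and Mir3103 gave 1.55 and 0.448 CPM. CGAGGCA joined Mir7689, at 517.2 and 504.9 CPM, with Mir5620, at 9.10 and 5.16 CPM. CUGGCUG joined Mir3064, at 18.2 and 26.0 CPM, with Mir3085, at 6.58 and 3.81 CPM. Of the 150 genes, 13 had an arm whose seed also occurs in a detected earlier-numbered gene, among them mmu-miR-3102-5p with mmu-miR-702-5p, mmu-miR-3475-5p with mmu-miR-96-3p and mmu-miR-6958-5p with the 3p arms of mmu-miR-30c-1 and mmu-miR-30c-2.

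The late-numbered genes made up a small share of the miRNA counts, which leave out reads mapped to several places. They held 18221 counts in replicate 1, 0.353% of the sense counts (exact Clopper-Pearson 95% interval 0.348 to 0.358). In replicate 2 they held 12346, 0.277% (0.272 to 0.282). These intervals cover counting noise within a library only, and the 2 do not overlap. Their summed level was 3147 ± 536.3 CPM (SD, n = 2). Abundance was concentrated in few genes: the 3 highest held 48.0% and 51.6% of these counts and the 20 highest held 78.8% and 80.1%. The median gene had a mean level of 3.55 CPM, against 165.0 CPM for the earlier-numbered genes that passed the same minimum, a log2 difference of -5.54. Of the 162, 92 (56.8%) were at 2 CPM or more in both libraries, where 79.9% of all 512 genes with 10 or more counts and 254 of 280 earlier-numbered genes were. Those counts follow from the levels that chose the genes and are read no further. At least 10 CPM in both libraries was reached by 29 genes and at least 100 CPM by 4, and 6 ranked among the 200 most abundant miRNA genes.

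**Figure D1:**
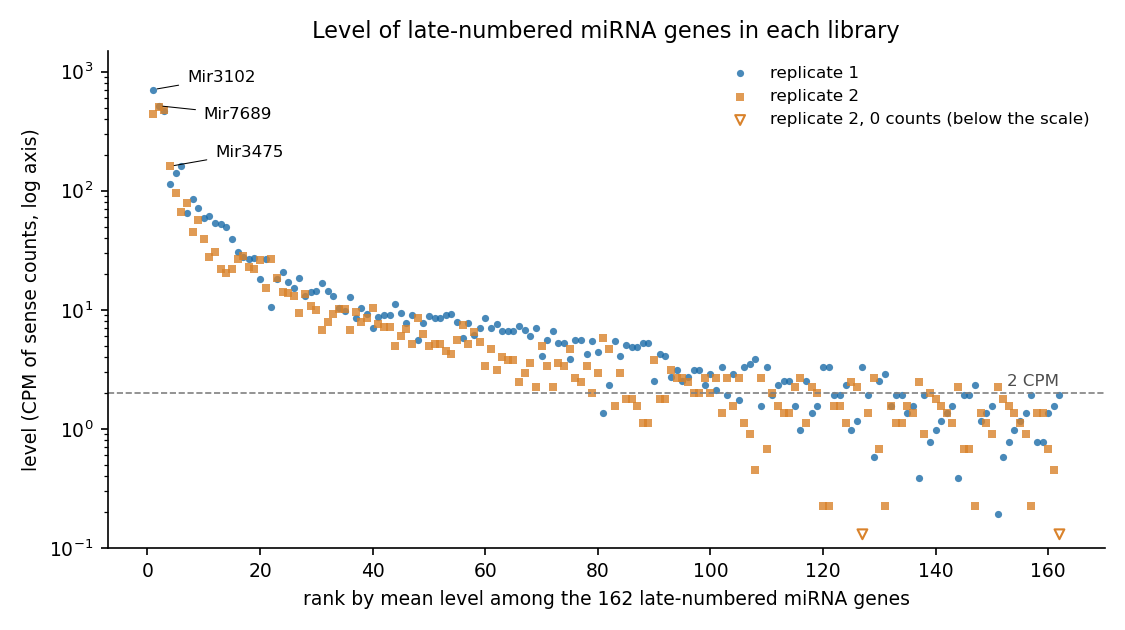
Level of each of the 162 genes (CPM of sense counts, log axis) in replicate 1 (circles) and replicate 2 (squares), ordered by mean level, with a dashed line at 2 CPM and open triangles for the 2 genes with 0 counts in replicate 2. The 3 highest genes lie between 443.1 and 707.6 CPM, set apart from the rest, and in the lowest ranks the libraries scatter as single counts set the steps.

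Of the 162 genes, 9 filled an intron, with both hairpin ends within 10 nt of the intron's ends. The introns were 67 to 104 nt long, all 9 hosts code for proteins, and these genes summed to 943.9 and 589.5 CPM. Mir3102, the most abundant late-numbered gene, occupied the whole 104-nt intron of Arhgef17, a guanine nucleotide exchange factor gene, at chr7:100882306-100882409 (mm10, minus strand). It gave 707.6 CPM in replicate 1 and 443.1 CPM in replicate 2. RefSeq lists 4 mature arms for it, where the other genes with a RefSeq mature sequence have 1 or 2. Mir7080 occupied the 67-nt intron of Cpne7 at chr8:123130106-123130172 (plus strand), a copine that binds phospholipid in a calcium-dependent way, with 141.9 and 95.3 CPM. Mir6944 filled a 96-nt intron of Dbn1 at chr13:55477681-55477776 (minus strand), the gene of the dendritic spine protein drebrin, with 52.6 and 22.2 CPM. Mir3547, at chr17:25245551-25245638 (minus strand) in Baiap3, a Munc13-family gene of vesicle release, gave 26.7 and 22.9 CPM. Mir6958, at chr15:89185465-89185537 (minus strand) in Dennd6b, gave 5.42 and 1.57 CPM. All 5 had the lower CPM in replicate 2, by amounts that differ from gene to gene. So did 84 of the 110 late-numbered genes with 20 or more counts. The 9 did not all go that way: Mir6970 gave 0.194 and 2.24 CPM, from 1 and 10 counts.

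Far more common were hairpins at the 3′ end of a longer intron: 91 of the 162 genes, against 118 of the 392 late-numbered genes below the minimum and 0 of the 280 detected earlier-numbered genes. The introns had a median length of 563 nt, from 76 to 86911 nt, and the 89 distinct hosts all code for proteins. Despite their number these genes summed to only 752.3 and 509.6 CPM, with a median of 3.32 CPM. Mir7044, at chr6:118085192-118085263 (mm10, plus strand) in a 705-nt intron of Rasgef1a, a Ras-family exchange factor gene, was the highest of them at 162.0 and 65.7 CPM. Mir7047 gave 72.0 and 56.3 CPM. Mir6769b, at chr8:71631047-71631106 (minus strand) in Unc13a, the gene of a synaptic vesicle priming protein, gave 39.7 and 22.2 CPM. Mir3064, in Ddx5, an RNA helicase gene whose protein takes part in miRNA processing, was the only 1 of these 4 with a higher level in replicate 2. Another 6 genes lay at the 5′ end of an intron instead.

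**Figure D2:**
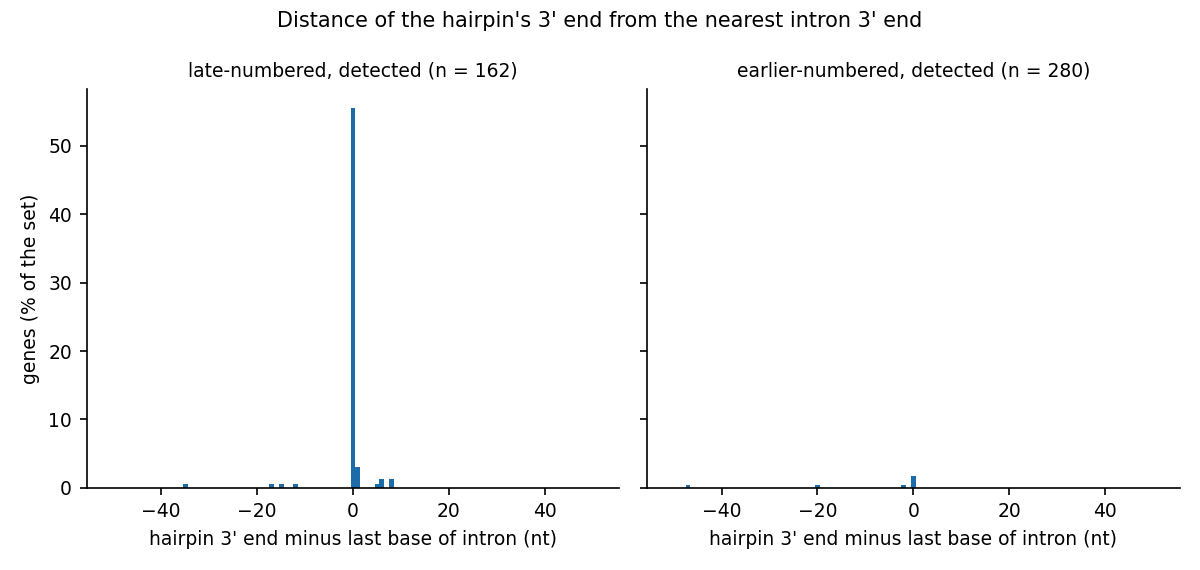
Distance in nt from the last base of the nearest annotated intron to the hairpin's 3′ end, as a percentage of the 162 detected late-numbered genes (left) and of the 280 detected earlier-numbered genes (right), within 50 nt. The left panel has a single tall bar at 0, the 90 hairpins that end on the intron's last base, and the right panel holds 5 genes there.

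The letters of the hairpins follow that position. The motif AG closed 94 of the 162 hairpins (58.0%), 129 of the 392 below the minimum (32.9%) and 27 of the 280 earlier-numbered ones (9.64%), and GT opened 22, 28 and 19. Only the sense strand was searched, and AG at the hairpin end is counted whether or not the hairpin lies in an intron. In the 90 hairpins that end on an intron's last base, C or T made up 98.9% of the third base from the end and 91.1% of the fifth, whereas in the 280 earlier-numbered hairpins those bases were C or T in 48.6% and 46.8%. A run of C and T before the AG is the textbook signature of a splice acceptor, so choosing hairpins by that position brings it along. Over the last 22 nt the median share of C and T was 68.2% in the 100 hairpins near an intron's 3′ end, 54.5% in the other 62 and 54.5% in earlier-numbered genes. Hairpins at the same place in the other sets had higher medians, 72.7% in 130 late-numbered genes below the minimum and 77.3% in 6 earlier-numbered genes. The other arm was rich in G: the first 22 nt held a median of 45.5% G in those 100, 36.4% in the other 62 and 27.3% in earlier-numbered genes, with 40.9% in the 130 and 50% in the 6 at the same place.

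**Figure D3:**
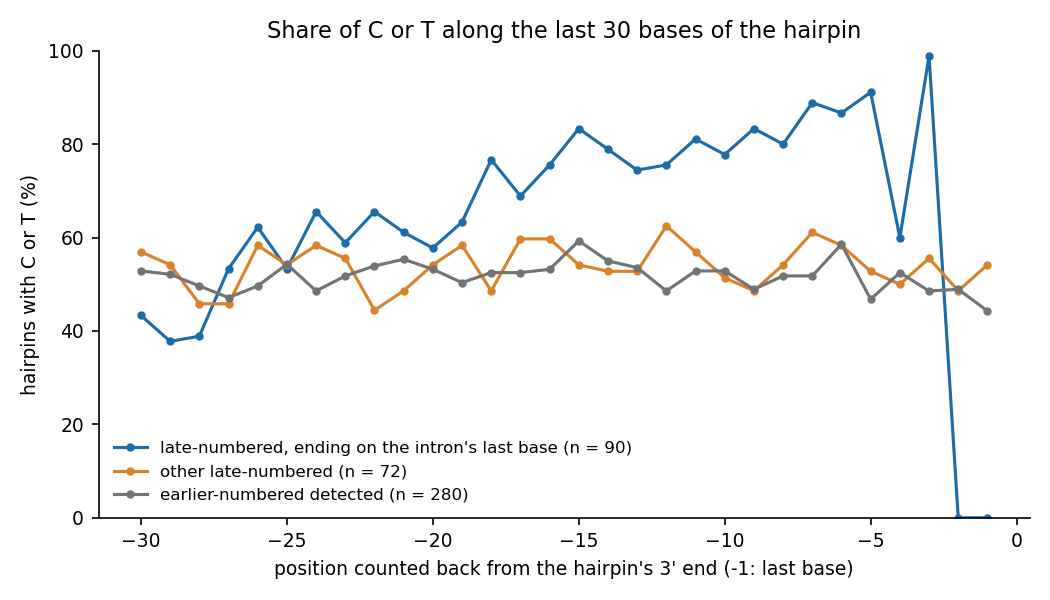
Percentage of hairpins with C or T at each of the last 30 bases, for the 90 late-numbered hairpins that end on an intron's last base, the other 72 late-numbered hairpins and the 280 earlier-numbered hairpins. The 90 lie above both other sets from base 24 to base 3, counted back from the end. They drop to 0% at the last 2 bases, the AG of the splice acceptor, while the other sets stay between 44.3% and 62.5%.

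Annotated mature ends lay at the same place. Of 81 RefSeq 3p arms in hairpins that end on an intron's last base, 67 ended on that base too and 79 within 3 nt of it, as mmu-miR-7044-3p does with its final cag. These hairpins were chosen for ending there. Annotated 3p arms can end with their hairpin at other positions too, as mmu-miR-7689-3p does. The match therefore describes the annotation and is not a separate result. The detected late-numbered hairpins were short, with a median of 67 nt against 85 nt for earlier-numbered ones, and GC-rich, with 57.9% against 49.7%. Their folding energy per base was -0.433 kcal/mol in the median, against -0.435 for earlier-numbered hairpins and -0.372 for late-numbered hairpins below the minimum. The 100 near an intron's 3′ end had a median of 65 nt, and the other 62 had 80 nt. Number and position went together: 43 of 53 genes numbered in the 6000s (81.1%) and 43 of 56 in the 7000s (76.8%) ended near an intron's 3′ end, against 11 of 35 in the 3000s, 3 of 14 in the 5000s and 0 of 4 in the 8000s.

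The remaining genes included several of the most abundant. Of the 162, 24 lay elsewhere in an intron, 19 in an exon, 8 between genes and 5 opposite a gene. Mir7689, opposite Sorcs2 at chr5:36301570-36301628 (mm10), gave 517.2 and 504.9 CPM, and Mir3099, deep in an intron of the imprinted gene Usp29, gave 469.7 and 479.6 CPM, so each had nearly the same level in both libraries. Mir3475, between genes on chromosome X, gave 114.0 and 160.5 CPM. Mir3059 in Mgat4c gave 85.5 and 44.6 CPM. Mir6540 in Gap43, the gene of a growth cone protein, gave 58.5 and 39.2 CPM. Mir3086 in Hspa12a gave 49.5 and 20.4 CPM. Mir3057 in an exon of Apba3 gave 141 and 98 counts. Of these 7 genes, Mir3099 and Mir3475 were the 2 with a higher CPM in replicate 2.

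**Figure D4:**
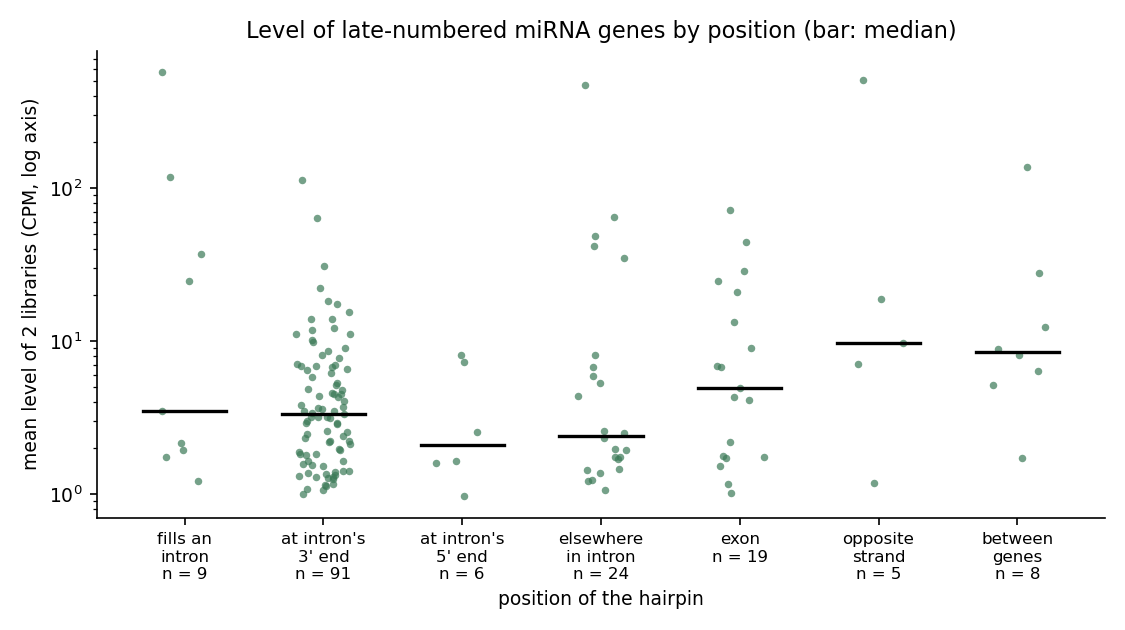
Mean level of the 2 libraries (CPM, log axis) of each of the 162 genes by the position of its hairpin, with a bar at the median. The 91 genes at an intron's 3′ end have a median of 3.32 CPM and a highest value of 113.8 CPM, while Mir3102 at 575.3, Mir7689 at 511.0 and Mir3099 at 474.7 CPM stand alone at the top of 3 other columns.

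Some of these counts may be incomplete or may hold reads of an overlapping RNA. Of the 162 genes, 4 shared a stretch of 20 nt with a miRNA gene that does not overlap them, namely Mir8112, Mir8111, Mir3074-1 and Mir6970. The same held for 37 of 392 below the minimum and 77 of 280 earlier-numbered genes. In 18 of the 162 a stretch of 20 nt also occurred in a transcript of another gene, in 1198 genes for Mir8111, 98 for Mir8112, 17 each for Mir6236 and Mir3473g and 9 for Mir6240. Reads mapped to several places were left out, so a shared stretch may lower the count of its gene (not tested). Mir8112, in an exon of Krcc1, gave 61.4 and 27.6 CPM, and Mir6236 gave 27.7 and 28.5 CPM. Another 4 overlapped an annotated small RNA of another kind. Mir3068 overlapped a snoRNA of the same name at 64.8 and 78.5 CPM, and Mir6516, in Snhg20, overlapped the scaRNA Gm26083 at 30.8 and 26.7 CPM. Mir3069 overlapped Scarna13 and Mir5121 overlapped Snord33, both below 10 CPM. Reads from such a partner were not separated here.

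Opposite an older miRNA gene lay 2 of the 162. Mir3074-1, with 7.55 and 3.14 CPM, lies opposite Mir24-1, with 53.4 and 24.4 CPM. Mir3107, with 1.55 and 1.35 CPM, lies opposite Mir486, a miRNA abundant in red cells and muscle, with 43.0 and 18.8 CPM. In both pairs the earlier-numbered gene had the higher level in each library, as counted. Overlapping genes were left out of the search for shared stretches, so whether reads of paired genes can be told apart was not tested. Mir24-1 shares a stretch of 20 nt with another miRNA gene, so its counts may leave out reads. Another miRNA gene within 10 kb on the same strand was found for 13 of 162, against 116 of 280 earlier-numbered genes. Mir3093 lay 341 bp from Mir9-1, a neural miRNA gene, and gave 275 and 137 counts where Mir9-1 gave 85 and 84. Mir3078 lay 444 bp from Mir124a-1 and gave 38 and 11 counts beside 21 and 6. Mir9 and Mir124a are each made from several gene copies, so counts at a single copy do not give the level of the mature miRNA.

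The libraries were compared gene by gene, a measure the rule did not use. The log2 ratio of replicate 2 over replicate 1 used TMM-scaled totals with 0.5 added to each count, and genes with 20 or more counts entered an exact binomial test (two-sided), adjusted by Benjamini-Hochberg over all 438 such genes at 0.05. That test compares 2 libraries and knows counting noise only. Of the 162, 110 were tested and 52 were too low. The test called 41 of the 110 (37.3%), where it called 67.1% of all genes tested, and the median tested gene had 64.5 counts here and 573.5 over all genes. Calls fell mostly on one side: 34 of the 110 were higher in replicate 1, beside 151 of 438 over all genes (34.5%). Only 7 of the 110 were higher in replicate 2, beside 143 of 438 (32.6%). The share called towards replicate 1 was thus near that of all genes, and the share towards replicate 2 was far below it. These shares are not matched for depth, and all genes include the 110. A ratio over 2-fold, with no test, was seen in 29 of 110, a share of 26.4% near the background of 27.2%, with 26 towards replicate 1 (background 19.2%) and 3 towards replicate 2 (background 7.99%). The median log2 ratio was -0.44 (quartiles -0.95 and 0.07), against -0.08 over all genes tested and 0.09 for earlier-numbered genes, and it was below 0 in 80 of 110, 238 of 438 and 121 of 264. TMM scaling moved the log2 ratio of every gene up by the same 0.13 against plain totals. Plain totals gave 41 calls higher in replicate 1 and 5 in replicate 2, and DESeq2 size factors gave 33 and 10. The earlier-numbered median of 0.09 turns to -0.04 with plain totals, while the late-numbered median is then -0.57.

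Hairpin GC content moved with that ratio, and some cell type markers differed between the libraries. Across genes, the log2 ratio had a Pearson coefficient of -0.33 and a Spearman coefficient of -0.32 with the GC percentage in the 110 late-numbered genes, and -0.28 and -0.31 in 264 earlier-numbered genes, where all points share the same 2 libraries and genes are not replicates. Late-numbered genes below 50% GC had a median log2 ratio of 0.31 (n = 11), those from 50 to 60% had -0.24 (n = 56) and those at 60% or more had -0.66 (n = 43). The earlier-numbered genes gave 0.33 (n = 129), 0.00 (n = 99) and -0.74 (n = 36) in the same bins. Mir126a of endothelium gave 21257 and 10411 CPM, lower in replicate 2. The mural cell genes Mir143 and Mir145a together gave 5077 and 9896 CPM, higher in replicate 2, the opposite direction. Neuronal genes summed to 36826 and 32458 CPM, oligodendrocyte genes to 3945 and 3862, and microglia and leukocyte genes to 1381 and 1331. Choroid plexus and cilia genes gave 557.0 and 492.6 CPM and red cell genes 79.2 and 52.7. The liver gene gave 54.6 and 60.1 CPM and the striated muscle genes 18.2 and 65.5. The part of GC content or of cell makeup in the result was not tested. In bulk tissue, fewer cells of a type and less RNA per cell cannot be told apart.

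**Figure D5:**
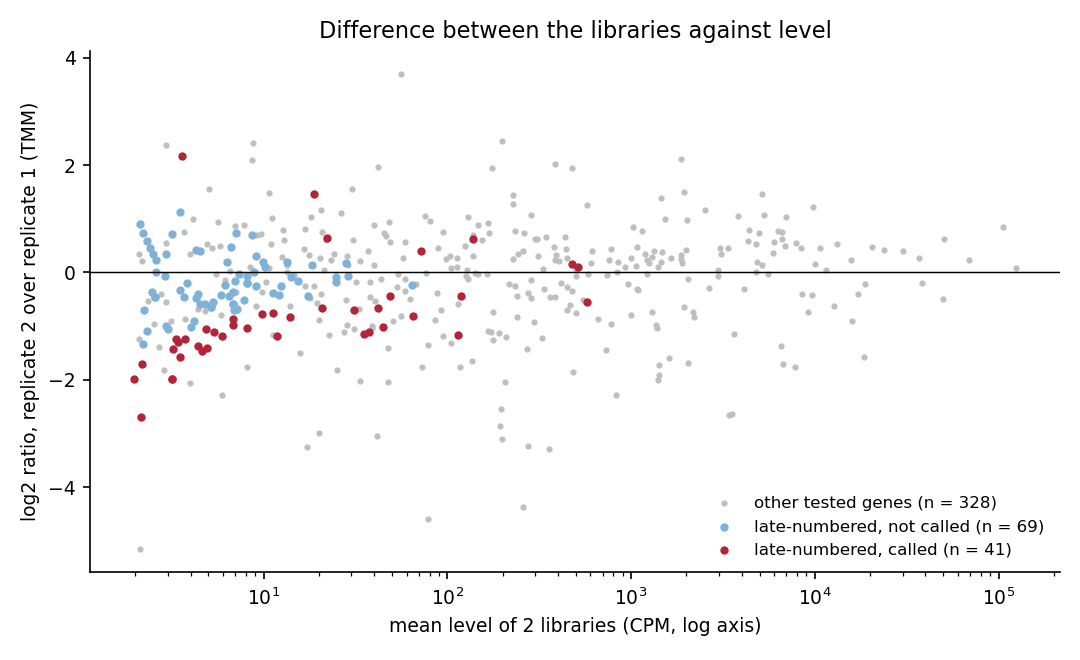
Log2 ratio of replicate 2 over replicate 1 (TMM-scaled) against mean level (CPM, log axis) for the 438 tested genes: other genes in grey, the 69 late-numbered genes without a call in light blue and the 41 called ones in dark red. Dark red points lie mostly below 0, and 7 lie above it.

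Among the called genes, the widest ratios belonged to low counts. Mir7070, which fills an 86-nt intron of the F-box gene Fbxw9, gave 20 counts in replicate 1 and 2 in replicate 2, a log2 ratio of -2.69 (exact binomial test, adjusted p = 0.00141). Mir7036 in Srrt and Mir7063 in Ap2a2 both gave 27 and 5 counts and Mir6418 in an intron of Epo gave 17 and 3, each a log2 ratio of -1.98. Mir5131, in an exon of Ddhd1, gave 18 and 4 counts and a ratio of -1.70. Each of these 5 had 32 counts or fewer in all, so a few reads set the size of its ratio.

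In the other direction, Mir6907, at the 3′ end of an intron of Rrp1, gave 7 and 26 counts, a log2 ratio of 2.16 (exact binomial test, adjusted p = 0.000126). Mir3083 gave 55 and 120 counts and a ratio of 1.46. Mir3064 gave 94 and 116 counts and a ratio of 0.64, Mir3475 gave 589 and 716 and a ratio of 0.62, and Mir3068 gave 335 and 350 and a ratio of 0.41. Mir7689 and Mir3099 were also called higher in replicate 2, with small log2 ratios of 0.10 and 0.16, and with plain totals neither was called, at -0.03 and 0.03, so the direction of Mir7689 flips. Mir3102 was called lower in replicate 2, with a log2 ratio of -0.55 (exact binomial test, adjusted p = 1.88e-42). Mir7044 had a ratio of -1.17, Mir3086 of -1.15, Mir6944 of -1.11 and Mir8112 of -1.02, all called. Mir7047, Mir6516, Mir6236, Mir3547 and Mir3057 were not called, with log2 ratios from -0.22 to 0.17.

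At the edge of the rule, single reads decided which genes were kept. Just inside, 16 genes had 10 to 12 counts in all: Mir5134, Mir3082, Mir3473g, Mir7211, Mir6970, Mir7668, Mir6965, Mir5114, Mir7008, Mir6914, Mir7012, Mir3066, Mir7010, Mir7672, Mir3103 and Mir6927. Their counts in the 2 libraries ranged from 10 and 0 in Mir6927 and 10 and 1 in Mir7012, through 6 and 6 in Mir3082, to 1 and 10 in Mir6970. Just outside, 14 genes had 8 or 9 counts: Mir6898, Mir6947, Mir6996, Mir7051, Mir7075, Mir7118, Mir7653, Mir7655, Mir8101, Mir8115, Mir3062, Mir6930, Mir6987 and Mir6991. Of those 14, 9 also lay at the 3′ end of an intron, as 91 of the 162 did.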

How the data were processed

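Per the deposited description of the files, reads in miRNA genes were counted on mouse build mm10 with GENCODE M21. The deposited values are raw counts per gene, 1 table per library, with 3 count columns and 4 lines that name no gene. Those lines held 65.2% and 65.1% of 14842903 and 12785704 reads and were left out. Among them were reads mapped to several places, 41.8% and 46.4% of all reads. Levels, shares and ranks therefore cover the counted reads only. Genes that share sequence may lose more reads than others (not tested). The sources used here name no aligner or counter, and CAST/EiJ reads with mismatches to mm10 may be lost (not tested). The stranded column with the larger total was taken as sense.

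CPM used sense totals. Library ratios used TMM factors (edgeR 4.0.16), with DESeq2 1.42.0 size factors as an alternative, and a two-sided exact binomial test (scipy 1.17.1), since a model across genes has no residual degrees of freedom here. On simulated counts of 443 genes with counting noise only, the test called 2 of 245 unchanged genes. It called 74% of those changed 1.5-fold, 87.8% at 2-fold and 92% at 4-fold. That is the only noise the test knows, so these rates do not give its error between the real libraries. Folding energies came from RNAfold 2.7.2, hairpins and introns from GENCODE M21, and mature arms from RefSeq. Repeat content was planned but not computed, since it needs a genome. Stretches shared with other transcripts, intron-end classes, base composition, arm ends, folding energy and the GC bins were added after the data were seen. Named genes are the 20 highest, the 5 widest called ratios each way, genes opposite another miRNA gene, the 5 highest that fill an intron, and those with 8 to 12 counts, others being chosen after their values were seen. The genes and lists were chosen with earlier results of these data known.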

Additional observations from a re-analysis of the deposited data

Results flagged for a closer look

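Antisense counts, which the comparisons did not use, exceeded the limit that a count of 0 allows in both libraries at 4 of the late-numbered genes. On the CPM scale of the sense counts, Mir3074-1 had an antisense level of 53.4 in replicate 1 and 24.4 in replicate 2, and Mir3107 had 43.0 and 18.8, the same values as the sense levels of Mir24-1 and Mir486 on the opposite strand. Mir5620, which has no annotated miRNA gene opposite, had 12 and 4.71 antisense, beside a sense level of 9.10 and 5.16 CPM. Mir3083 had 9.10 and 7.17 antisense, beside 10.6 and 26.9 CPM in sense.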

How the results depend on the processing

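No paired analysis was possible because the series has only 1 group. The medians and differences of the late-numbered genes kept their sign under the alternatives run. With plain totals, Mir7689 changed direction, Mir3099 lost its call, and the earlier-numbered median log2 ratio turned from 0.09 to -0.04 (0.12 to -0.01 for genes with 20 to 200 counts), a comparison chosen after seeing the data. A minimum of 50 counts in place of 20 for the ratio gave 27 of 65 genes called (41.5%, against 74.5% of all genes) and 9 over 2-fold (13.8%, against 24.7% of all genes), and a minimum of 10 gave 50 of 162 over 2-fold (30.9%, against 29.1% of all genes). Genes with 20 to 200 counts, a window chosen after seeing the data, gave 25 calls of 89 (28.1%) and a median log2 ratio of -0.44, against 55 of 162 (34.0%) and -0.35 for all genes and 28 of 58 (48.3%) and 0.12 for earlier-numbered genes in that window. A minimum of 1 count in place of 10 gave 314 genes with a median of 1.07 CPM. A minimum of 50 gave 65 genes, a median of 11.2 CPM and a log2 difference from earlier-numbered genes of -4.52. Requiring 10 counts in the library that remains gave 101 genes without replicate 1 and 129 without replicate 2, and the log2 difference then ran from -5.43 to -4.95. Asking for at least 1 hairpin end within 10 nt of an intron end, in place of both, raised the share of intron matches from 5.56% to 65.4%. These settings admit fewer or more genes by construction. Depth limits the 52 untested genes, where single reads move the ratio. With 2 libraries that may share a donor, no value here measures a spread between animals.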
